A study of Mus musculus with 3 samples.

Results

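The 9 genes described here encode ligands, a co-receptor, a receptor and inhibitors of Nodal and activin signaling: *Nodal*, *Lefty1*, *Lefty2*, *Tdgf1*, *Gdf3*, *Inhba*, *Inhbb*, *Acvr2b* and *Smad7*. They were taken by gene name from both deposited expression tables, in which they are 9 of 23953 rows. RNA-seq was performed on E14 cells, a mouse embryonic stem cell (ESC) line grown with serum and LIF, the cytokine that holds ESCs undifferentiated. The study asked which genes depend on the *Oct4* (*Pou5f1*) distal enhancer (DE), and whether supplying Oct4 from a transgene makes up for its loss.

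The 3 libraries, 1 per condition, were titled WT, Tam and DoxTam. The treated lines carried loxP sites around the *Oct4* DE, a tamoxifen-activated Cre (CreERT2) and a doxycycline-inducible mouse Oct4 transgene (mOct4), delivered by lentivirus. They were clonally expanded lines. The paper made mono-allelic and bi-allelic lines, and it gives the cells used for RNA-seq as DE -/-, the genotype lacking both copies after tamoxifen. Tam cells received 4-OH tamoxifen for 48 h, which activates Cre to delete the DE, and DoxTam cells received 4-OH tamoxifen with doxycycline, which also induces the transgene. The labels list a doxycycline-inducible and a tamoxifen-inducible construct for all 3 libraries, WT included, and while the study elsewhere uses wild type for cells without loxP sites, the sources used here do not name the line behind the WT library. The number of clones behind a library and any difference between clones cannot be told apart from the treatment. With 1 library per condition no difference between conditions has a replicate check, so no p-value is given, and intervals below cover counting error only.

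Nodal and activins are secreted ligands of the TGF-beta family. They assemble type II receptors (*Acvr2a*, *Acvr2b*) with type I receptors (*Acvr1b*, *Acvr1c*), which phosphorylate SMAD2 and SMAD3. These join SMAD4 and partners such as FOXH1 on DNA. Nodal also needs an EGF-CFC co-receptor, of which *Tdgf1* (Cripto) is the one known in ESCs. The Lefty proteins are secreted antagonists that are themselves induced by the pathway, and SMAD7 is an induced intracellular inhibitor, so both act as negative feedback. In the embryo the pathway patterns the primitive streak and the left-right axis, and in culture it is active in ESCs.

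The sequence upstream of the RefSeq transcription start was matched for 5 of the 9 genes (*Nodal*, *Tdgf1*, *Inhba*, *Inhbb* and *Acvr2b*). The 4 shown are those of the 2 members that were lower in both treated libraries (*Inhbb*, *Acvr2b*) and of the 2 best expressed members with an entry (*Tdgf1*, *Nodal*). Each is 250 bases, written 5′ to 3′ on the strand of the gene, from RefSeq (GRCm38.p6), with the position of its exact match in mm9, the build of the deposited tables. Capitals mark CAGAC, the core element bound by SMAD3 and SMAD4, on either strand. 
Inhbb, chr1:121318826-121319075, minus strand: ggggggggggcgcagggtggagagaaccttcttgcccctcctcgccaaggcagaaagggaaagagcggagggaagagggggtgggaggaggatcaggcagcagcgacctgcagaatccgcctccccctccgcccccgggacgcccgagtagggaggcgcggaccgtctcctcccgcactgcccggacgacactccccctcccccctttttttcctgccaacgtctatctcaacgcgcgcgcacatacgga
Acvr2b, chr9:119311046-119311295, plus strand: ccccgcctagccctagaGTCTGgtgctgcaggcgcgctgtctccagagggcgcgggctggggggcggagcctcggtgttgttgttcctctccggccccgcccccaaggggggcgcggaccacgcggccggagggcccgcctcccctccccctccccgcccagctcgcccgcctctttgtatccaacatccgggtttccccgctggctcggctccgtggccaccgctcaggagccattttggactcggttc
Tdgf1, chr9:110848663-110848912, minus strand: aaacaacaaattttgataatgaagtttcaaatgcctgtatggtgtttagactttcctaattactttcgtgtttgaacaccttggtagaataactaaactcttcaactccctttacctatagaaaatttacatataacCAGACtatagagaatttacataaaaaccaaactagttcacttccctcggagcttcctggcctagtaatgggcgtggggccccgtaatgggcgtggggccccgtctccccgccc
Nodal, chr10:60880470-60880719, plus strand: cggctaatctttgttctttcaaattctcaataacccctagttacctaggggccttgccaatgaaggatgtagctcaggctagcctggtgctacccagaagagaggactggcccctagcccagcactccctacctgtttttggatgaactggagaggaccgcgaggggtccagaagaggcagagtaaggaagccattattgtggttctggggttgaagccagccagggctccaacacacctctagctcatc

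The *Inhbb* and *Acvr2b* sequences were rich in G and C. Their GC contents were 68.0% and 72.8%, at the 87.8th and 94.0th percentiles of 32851 RefSeq upstream sequences of the same length, whose median was 52.4%. *Nodal* had 53.2% and *Tdgf1* 42.0%. The SMAD element occurred once in *Acvr2b* and once in *Tdgf1*, and 42.2% of all upstream sequences held it. The SMAD palindrome GTCTAGAC (0.167% of all), the FOXH1 motif AATNCACA (3.18%), the octamer ATGCAAAT bound by OCT4 (1.60%) and the SOX motif CATTGTT (3.29%), searched on both strands, occurred in 0 of the 5 member sequences. None of these motifs is contained in another, and the absence of the letters from these windows says nothing about binding elsewhere.

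The levels are FPKM, fragments per kilobase of transcript scaled to sequencing depth, so they can be set against each other between genes of different length. From the smallest steps of the values, depth was estimated at about 11.3, 6.29 and 6.89 × 10⁶ fragments for WT, Tam and DoxTam. *Pou5f1*, the gene whose enhancer was targeted, stood at 664, 529 and 458 FPKM in the libraries labelled WT, Tam and DoxTam. Against WT these were log2 folds of -0.33 and -0.54, both within 1.5-fold. The lowest *Pou5f1* level was thus in the library whose label names the induced transgene, so the treated libraries are referred to by their labels. By qPCR, the paper reported *Oct4* expression nearly lost with tamoxifen alone in lines lacking both DE copies. With doxycycline added, it reported a level close to wild type. The levels above did not follow that course, and the extent of DE deletion in these libraries was not tested. Whether the labels of these libraries are in order, and whether the *Pou5f1* value counts transgene reads, was not tested, and both bear on every value of DoxTam against Tam. The order of the labels also bears on every value of Tam or DoxTam against WT. Pluripotency markers (6 genes) summed to between 1355 and 1610 FPKM, and the markers of fibroblasts (7 genes) and primitive endoderm (6 genes) to at most 5.18 FPKM in every library, with 3 of the fibroblast markers at 0 in WT and in DoxTam. Trophectoderm markers (6 genes) summed to 11.3, 14.3 and 10.5 FPKM in WT, Tam and DoxTam, and primitive streak markers (6 genes) to 4.2, 8.01 and 6.76. Within the trophectoderm list *Cdx2* (0.639, 2.82 and 0.128 FPKM) and *Gata3* (0.0980, 1.77 and 0.213) passed 1.5-fold in Tam, while *Tfap2c* (6.55, 4.46 and 3.70) was highest in WT. The library labelled Tam also carried more low-level signal: the 1117 olfactory receptor genes, which are expressed in sensory neurons of the nose, averaged 0.285 FPKM there, against 0.0718 in WT and 0.0616 in DoxTam. The part of these differences in the results below was not tested. In bulk RNA, a change in the number of cells of a type and a change in RNA per cell cannot be told apart.

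The pathway's components spanned a wide range of levels. In WT the order was *Tdgf1*, *Smad7*, *Nodal*, *Inhbb*, *Acvr2b*, *Gdf3*, *Lefty2*, *Lefty1* and *Inhba*. *Tdgf1* lay at the 98.8th percentile of genes with at least 1 FPKM, *Smad7* at the 93.2nd, *Nodal* at the 86.9th and *Lefty1* at the 26.1st. The first 3 places and *Lefty1* and *Inhba* at the end were the same in all 3 libraries, while *Inhbb* went from the fourth place in WT to the sixth in Tam and the seventh in DoxTam. In WT *Inhbb* (24.2 FPKM) and *Acvr2b* (22.9) were neighbours with about equal levels, and so were *Lefty2* (5.53) and *Lefty1* (4.37). The spread of the levels over libraries could not be set against replicates.

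**Figure D1:**
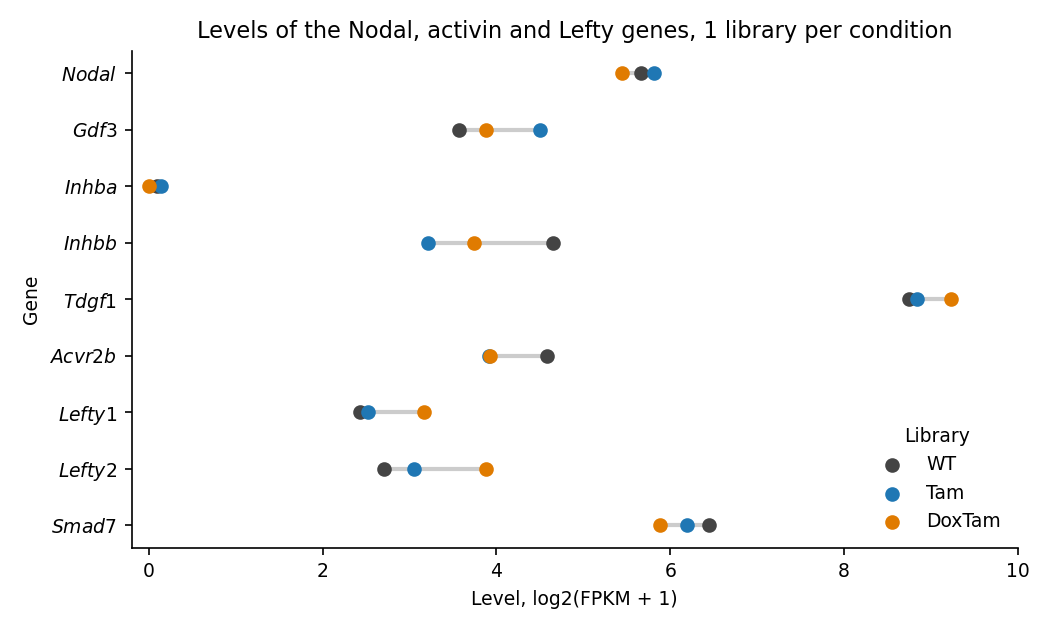
Level of each of the 9 genes in the WT, Tam and DoxTam libraries, as log2(FPKM + 1), with 1 point per library and a grey line from the lowest to the highest. *Tdgf1* is the highest and *Inhba* the lowest in all 3 libraries, *Inhbb* and *Acvr2b* are highest in WT, and *Lefty1* and *Lefty2* are highest in DoxTam.

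Folds are log2((FPKM + 1)/(FPKM + 1)), which understates the folds of low genes, and a gene with at least 1 FPKM in 1 of the 2 libraries compared was called higher or lower at 1.5-fold (0.58 on the log2 scale). *Inhba* missed this minimum, so 8 of the 9 members were measured. In Tam against WT, 1 member was higher (*Gdf3*), where 6.98% of 12705 measured genes were higher. In the same comparison 2 members were lower (*Inhbb*, *Acvr2b*), where 3.59% of all genes were lower. In DoxTam against WT, 2 were higher (*Lefty1*, *Lefty2*), with 4.12% of 12384 genes higher, and 2 were lower (*Inhbb*, *Acvr2b*), with 5.78% lower. In DoxTam against Tam, 2 were higher (*Lefty1*, *Lefty2*), with 2.09% of 12647 genes higher, and 1 was lower (*Gdf3*), with 5.74% lower. The members' median folds were 0.09, 0.05 and 0.20 in the 3 comparisons, beside medians of 0.021, -0.0028 and -0.019 over all measured genes. Both comparisons against WT share the WT library, so a call seen in both is not a repeated measurement.

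*Nodal*, the ligand that names the pathway, differed little between libraries. It is a 3-exon gene on chromosome 10 (mm9, chr10:60880720-60888085, plus strand). Its level was 49.6 FPKM in WT, 55.4 in Tam and 42.6 in DoxTam. The Tam level was 1.12 times that of WT (95% counting interval 1.02 to 1.23) and the DoxTam level 0.859 times (0.778 to 0.948). Tam was the highest library and DoxTam the lowest, and the ratio of DoxTam to Tam was 0.769 (0.690 to 0.858), or -0.37 on the log2 scale with 1 FPKM added. None of the 3 folds reached 1.5-fold.

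*Gdf3*, a ligand of the same family that also signals through Cripto, was highest in Tam. It is a 2-exon gene on chromosome 6 (chr6:122555421-122560089, minus strand). Its level was 10.9 FPKM in WT, 21.7 in Tam and 13.7 in DoxTam. The Tam level was 1.99 times that of WT (1.68 to 2.36), a log2 fold of 0.93 that was above that of 97.5% of measured genes. DoxTam lay between the others, at 1.26 times WT (1.04 to 1.52) and 0.634 times Tam (0.526 to 0.760). Of the *Gdf3* transcript, 12.9% aligned elsewhere in the genome at 80% identity or more, in 119892 alignments, and 7.53% at 90% or more. The part of reads from such places in its level was not tested. The ratio of *Nodal* to *Gdf3* was 4.56 in WT, 2.56 in Tam and 3.11 in DoxTam. *Gdf3* sits in a cluster of stem cell genes with *Dppa3* and *Nanog*. Among the 9 genes within 250 kb, *Slc2a3*, a glucose transporter gene, was the only one called in Tam, at 265, 461 and 374 FPKM in WT, Tam and DoxTam (log2 folds of 0.80 and 0.50). *Nanog* stood at 186, 228 and 202 FPKM, also highest in Tam but within 1.5-fold. *Dppa3* stood at 1.09, 1.55 and 0.405 FPKM and was within 1.5-fold in both comparisons against WT.

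*Inhbb*, which encodes the beta B subunit of activin B, showed the widest range of the 8 measured members, with its highest level 2.94 times its lowest. It is a 2-exon gene on chromosome 1 (chr1:121312042-121318825, minus strand), and the upstream sequence printed above ends just before its first base. Its level was 24.2 FPKM in WT, 8.24 in Tam and 12.3 in DoxTam. The Tam level was 0.340 times that of WT (0.294 to 0.394), a log2 fold of -1.45, and only 0.433% of measured genes had a lower fold. The DoxTam level was 0.510 times that of WT (0.452 to 0.574), a log2 fold of -0.92, with 1.38% of genes lower. Both treated libraries were thus below WT, on about 1164, 221 and 362 fragments in WT, Tam and DoxTam. DoxTam was 1.497 times Tam (1.26 to 1.78), and its log2 fold of 0.53 stayed within 1.5-fold. None of its 4 neighbours within 250 kb was called in either comparison against WT. *Inhba*, which encodes the beta A subunit of activin A (chr13:16106308-16119044, plus strand), was listed at 0.0633 FPKM in WT, 0.0986 in Tam and 0 in DoxTam, or about 1, 1 and 0 fragments. The other beta subunit genes, *Inhbc* (0.513, 0.196 and 0.145 FPKM) and *Inhbe* (0.301, 0.151 and 0.266), were also under 1 FPKM in the 3 libraries, so *Inhbb* was the beta subunit gene above that level. The ratio of *Nodal* to *Inhbb* was 2.05 in WT, 6.72 in Tam and 3.46 in DoxTam. Summed over *Nodal*, *Gdf3*, *Inhba* and *Inhbb*, ligand transcripts came to 84.8, 85.4 and 68.7 FPKM, so the Tam sum differed from WT by a ratio of only 1.007 while its members went in opposite directions.

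*Tdgf1*, the co-receptor Cripto, was the most abundant member. It is a 6-exon gene on chromosome 9 (chr9:110842112-110848662, minus strand). Its level was 429 FPKM in WT, 457 in Tam and 600 in DoxTam. The DoxTam level was 1.40 times that of WT (1.36 to 1.44), under the 1.5-fold limit, and the Tam level 1.07 times (1.03 to 1.10). There were 8.64 *Tdgf1* for each *Nodal* transcript in WT, 8.25 in Tam and 14.1 in DoxTam. *Tdgf1* has processed copies in the genome: 96.5% of its transcript aligned elsewhere at 90% identity or more, with a longest stretch of 1009 bases at 96.7% identity on chromosome 16 (3730260 to 3731268). The sources used here do not say how reads that fit both places were assigned, so its level is uncertain.

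*Acvr2b*, the type II receptor, was lower in both treated libraries and at the same level in them. It is a 10-exon gene on chromosome 9 (chr9:119311619-119342624, plus strand). The upstream sequence printed above ends at 119311295, so it does not reach the gene start given here. Its level was 22.9 FPKM in WT, 14.1 in Tam and 14.2 in DoxTam. The ratios to WT were 0.614 (0.507 to 0.738) and 0.620 (0.518 to 0.744), log2 folds of -0.67 and -0.65. DoxTam against Tam gave a ratio of 1.0 (0.811 to 1.27). *Acvr2a*, the other type II receptor, went the other way within 1.5-fold, at 5.12 FPKM in WT, 7.73 in Tam and 7.90 in DoxTam (log2 folds of 0.51 and 0.54). The ratio of *Acvr2b* to *Acvr2a* was 4.49 in WT, 1.82 in Tam and 1.80 in DoxTam. Their sum was 28.1, 21.8 and 22.1 FPKM, within 1.5-fold of WT in both. None of the 7 measured neighbours of *Acvr2b* within 250 kb was called.

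*Lefty1* and *Lefty2*, the secreted antagonists, were both highest in DoxTam. They lie on chromosome 1 (chr1:182865170-182868532 and chr1:182823250-182829233, both on the plus strand), 4 exons each, with 35936 bases between them. *Lefty2* stood at 5.53 FPKM in WT, 7.28 in Tam and 13.7 in DoxTam. *Lefty1* stood at 4.37, 4.72 and 8.005 FPKM. Tam and WT lay close together and DoxTam above both. The DoxTam level of *Lefty2* was 2.48 times that of WT (2.01 to 3.05), a log2 fold of 1.17 that exceeded that of 99.6% of measured genes. For *Lefty1* it was 1.83 times (1.33 to 2.498), a log2 fold of 0.75 above 98.2% of genes. Against Tam the ratios were 1.88 (1.504 to 2.39) for *Lefty2* and 1.696 (1.18 to 2.46) for *Lefty1*, log2 folds of 0.83 and 0.65. In Tam against WT the log2 folds were 0.34 for *Lefty2* and 0.09 for *Lefty1*, both within 1.5-fold. *Lefty1* rests on about 80, 48 and 89 fragments and *Lefty2* on 155, 113 and 234, so their intervals are the widest of the measured members.

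The Lefty genes are close copies, so reads could be shared between them. Of the 1620 bases of the *Lefty1* transcript, 1153 (71.2%) aligned to *Lefty2* at 76.8 to 98.0% identity, and 17.9% of its stretches of 50 bases were identical in *Lefty2*. Their transcripts differ in length (1620 and 2473 bases), so the sum of their FPKM also depends on how shared reads were split. The sum was 9.90 FPKM in WT, 12 in Tam and 21.7 in DoxTam, so DoxTam was 2.19 times WT and 1.81 times Tam. The ratio of *Lefty2* to *Lefty1* was 1.27, 1.54 and 1.71. For each Lefty transcript there were 5.01 *Nodal* transcripts in WT, 4.62 in Tam and 1.96 in DoxTam. The last 40.5% of the *Lefty2* transcript also matched 327 other places at 80% identity or more. Of the 11 measured neighbours of *Lefty1* within 250 kb, *Lefty2* and *Lin9* were higher in DoxTam (log2 folds of 1.17 and 0.59). *Ephx1*, an epoxide hydrolase gene, was called higher in Tam and not in DoxTam, at 7.91, 20.7 and 9.42 FPKM in WT, Tam and DoxTam, with a log2 fold of 1.29.

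*Smad7*, the intracellular inhibitor, was the second most abundant member and was lowest in DoxTam. It is a 4-exon gene on chromosome 18 (chr18:75527019-75555588, plus strand). Its level was 86.0 FPKM in WT, 72.2 in Tam and 58.0 in DoxTam. The ratio to WT was 0.840 (0.795 to 0.886) in Tam and 0.675 (0.637 to 0.714) in DoxTam. On the log2 scale with 1 FPKM added these were -0.25 and -0.56, so neither was called, although the DoxTam value lay just inside the limit of 0.58. The inhibitors among the members thus had unlike directions in DoxTam: both Lefty genes were called higher than WT, and *Smad7* stood below WT without being called.

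**Figure D2:**
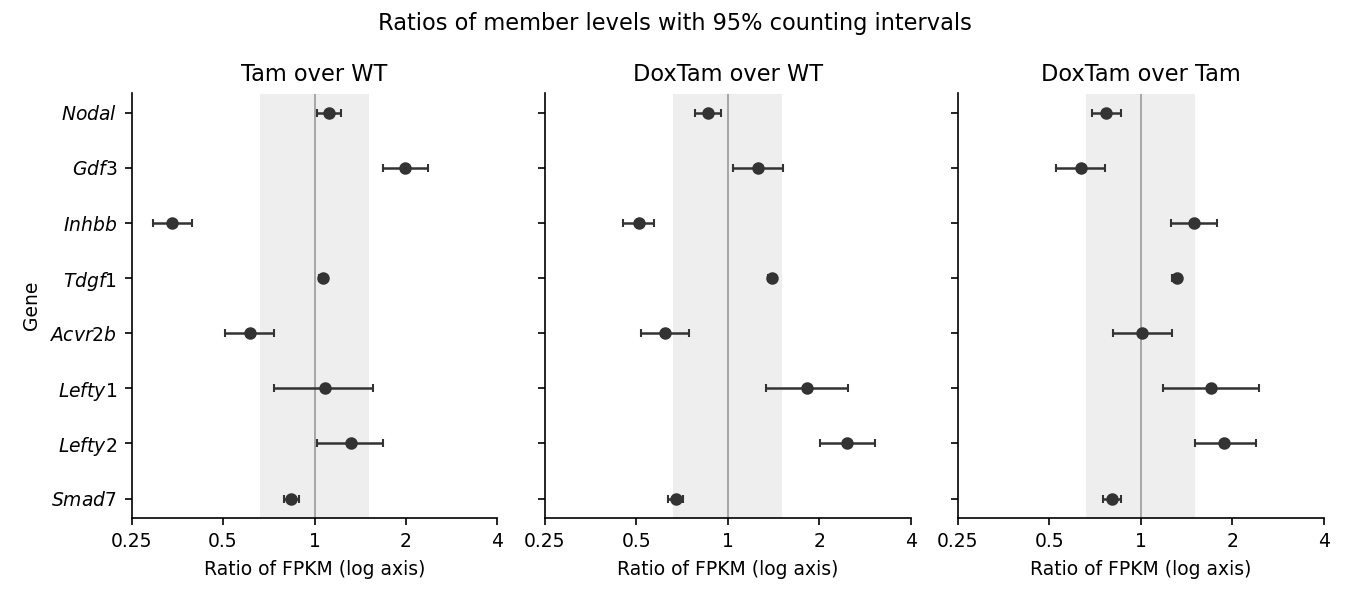
Ratio of FPKM between libraries for the 8 measured members, on a log axis, with 95% counting intervals from the estimated fragments. The shaded band is 1.5-fold to either side of 1. *Inhbb* and *Acvr2b* lie left of 1 in both comparisons against WT, *Gdf3* is at 1.99 in Tam, and *Lefty2* is at 2.48 and *Lefty1* at 1.83 in DoxTam. The intervals cover counting error only.

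The folds of all genes followed the GC content of their transcripts, and the 2 members called lower in both comparisons have GC-rich transcripts. Over genes with a GC value, the Spearman correlation of fold with GC content was -0.389 in Tam against WT (11292 genes), -0.612 in DoxTam against WT (11047) and -0.303 in DoxTam against Tam (11255). Genes within a library share its preparation and are not independent replicates. In DoxTam the median log2 fold was 0.34 in the decile of transcripts with the least GC and -0.34 in the decile with the most, and in Tam these were 0.24 and -0.20. The transcripts of *Acvr2b* (62.0% GC) and *Inhbb* (60.9%) lay at the 97.7th and 96.2nd percentiles of GC content. With the trend on GC content subtracted, *Inhbb* had log2 folds of -1.24 in Tam and -0.57 in DoxTam, the second of which was no longer called, and 0.67 in DoxTam against Tam, which was now called. *Acvr2b* had -0.43 and -0.28, no longer called in either. *Lefty1* (58.6% GC) had 1.04 in DoxTam after the subtraction and *Lefty2* (51.5%) 1.22, both larger than before. *Gdf3* (49.5%) had 0.90 in Tam, and *Tdgf1* (45.4%) had 0.31 in DoxTam. *Smad7* (56.9%) had -0.12 and -0.31, and *Nodal* (55.9%) 0.25 and -0.015.

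**Figure D3:**
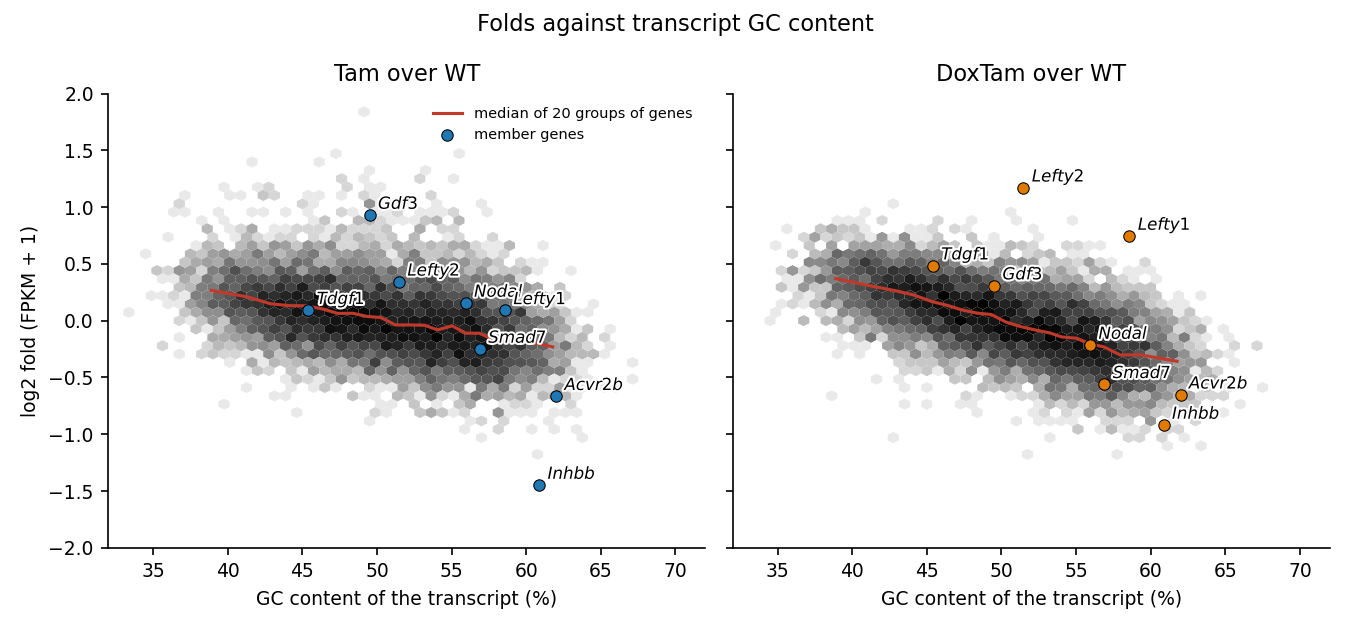
Log2 fold against the GC content of the transcript in percent, for Tam over WT and DoxTam over WT. Grey hexagons are all measured genes, darker where more genes fall, the red line is the median in 20 groups of genes ordered by GC content, and labelled points are the 8 measured members. The line slopes down in both panels, *Acvr2b* and *Inhbb* sit at its GC-rich end, and *Lefty1* and *Lefty2* lie above it in DoxTam.

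The other 55 genes of the Nodal, activin and TGF-beta pathways were read against the same background. In Tam 39 were measured, of which 5 (12.8%) were higher (*Tgfbr1*, *Tgfbr3*, *Eng*, *Fst* and *T*), beside 6.98% of all genes, and 0 lower, with a median log2 fold of 0.07. In DoxTam 36 were measured, with 1 higher (*Eomes*, 2.78%), 1 lower (*Furin*, 2.78%), beside 4.12% and 5.78% of all genes, and a median of -0.007. In DoxTam against Tam 39 were measured, with 0 higher, 4 lower (*Tgfbr3*, *Eng*, *Fst* and *T*, 10.3%), beside 5.74% of all genes, and a median of -0.03. These shares of all genes depend on level, and *Tgfbr3*, *Fst* and *T* stayed under 5 FPKM in every library. Of all genes whose higher level was 1 to 5 FPKM, 10.4% were higher in Tam against WT. In DoxTam against Tam, 11.0% of genes at that level were lower. At 5 to 20 FPKM, where *Tgfbr1* and *Eng* lay, these shares were 5.72% and 4.01%.

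Among ligands and their processing enzymes, 6 of 12 genes were measured in Tam and 5 in DoxTam. *Furin* and *Pcsk6* encode proteases that cleave the Nodal precursor. *Furin* stood at 5.96 FPKM in WT, 4.99 in Tam and 3.20 in DoxTam, a log2 fold of -0.73 in DoxTam that became -0.44, within 1.5-fold, once the GC trend was subtracted. *Pcsk6* stood at 30.6, 30.3 and 24.7 FPKM, within 1.5-fold throughout.

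Among the 8 receptors and co-receptors, 6 were measured and 3 were higher in Tam. *Acvr1b*, the type I receptor that carries Nodal and activin signals, was level at 18.4, 17.1 and 18.7 FPKM in WT, Tam and DoxTam. *Acvr1c*, the alternative type I receptor, was at most 0.232 FPKM, and *Cfc1*, the other EGF-CFC co-receptor, at most 0.101. The expressed receptor set was thus *Acvr1b* with *Acvr2a*, *Acvr2b* and *Tdgf1*. *Tgfbr3*, the co-receptor betaglycan, stood at 1.14, 2.88 and 0.767 FPKM, a log2 fold of 0.85 in Tam. *Eng*, the co-receptor endoglin, stood at 12.1, 19.0 and 12.1 FPKM, a log2 fold of 0.61 in Tam. In DoxTam against Tam the log2 fold of *Eng* was -0.62, and -0.50, no longer called, with the GC trend subtracted. *Tgfbr2*, the type II receptor for TGF-beta, stood at 1.25, 1.55 and 1.63 FPKM, within 1.5-fold. *Tgfbr1*, the type I receptor for TGF-beta, stood at 4.48, 7.36 and 6.11 FPKM, also 0.61 in Tam, and 0.40 with the GC trend subtracted. With the mean olfactory receptor level subtracted from each library, *Tgfbr1* had 0.579, just under the limit of 0.585, and the other 4 genes called in Tam were still called. The same subtraction left *Fst* at -0.52 in DoxTam against Tam, no longer called.

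Of the 8 genes listed as antagonists, decoys and modulators, 6 were measured in Tam. *Fst*, which encodes the activin trap follistatin, was the 1 called there, at 0.568, 1.55 and 0.642 FPKM in WT, Tam and DoxTam (about 15, 23 and 10 fragments). *Cer1*, which encodes the Nodal antagonist Cerberus, was at most 0.0428 FPKM. *Nomo1*, which encodes a modulator of Nodal signaling, was the highest of the list, at 56.8, 40.4 and 37.8 FPKM (log2 folds of -0.48 and -0.58, neither called), and *Bambi*, which encodes a decoy receptor, stood at 1.93, 2.74 and 1.86 FPKM. The 8 SMADs and partners and the 9 intracellular inhibitors were all measured, and 0 of them reached 1.5-fold in any comparison. *Smad2* stood at 11.1, 10.9 and 14.3 FPKM, *Smad3* at 4.35, 4.29 and 4.27, and *Smad4* at 29.1, 29.4 and 33.6. *Foxh1*, the partner of SMAD2 on Nodal targets, stood at 13.9, 17.2 and 16.8 FPKM. The signal-transducing SMADs were within 1.5-fold of WT in both treated libraries.

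Of 10 target genes of Nodal and activin signaling, 4 were measured in Tam and 3 in DoxTam. *T* (Brachyury), a primitive streak gene, stood at 0.309 FPKM in WT, 1.92 in Tam and 0.511 in DoxTam, on about 7, 25 and 7 fragments, a log2 fold of 1.16 in Tam. *Eomes*, a gene of the primitive streak and trophectoderm, stood at 2.91, 4.08 and 5.43 FPKM, a log2 fold of 0.72 in DoxTam. *T* was thus highest in Tam and *Eomes* in DoxTam, the library in which the Lefty genes, targets of the same pathway, were also highest. Both genes are on the list of primitive streak markers summed above, and *Eomes* is also on the trophectoderm list.

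**Figure D4:**
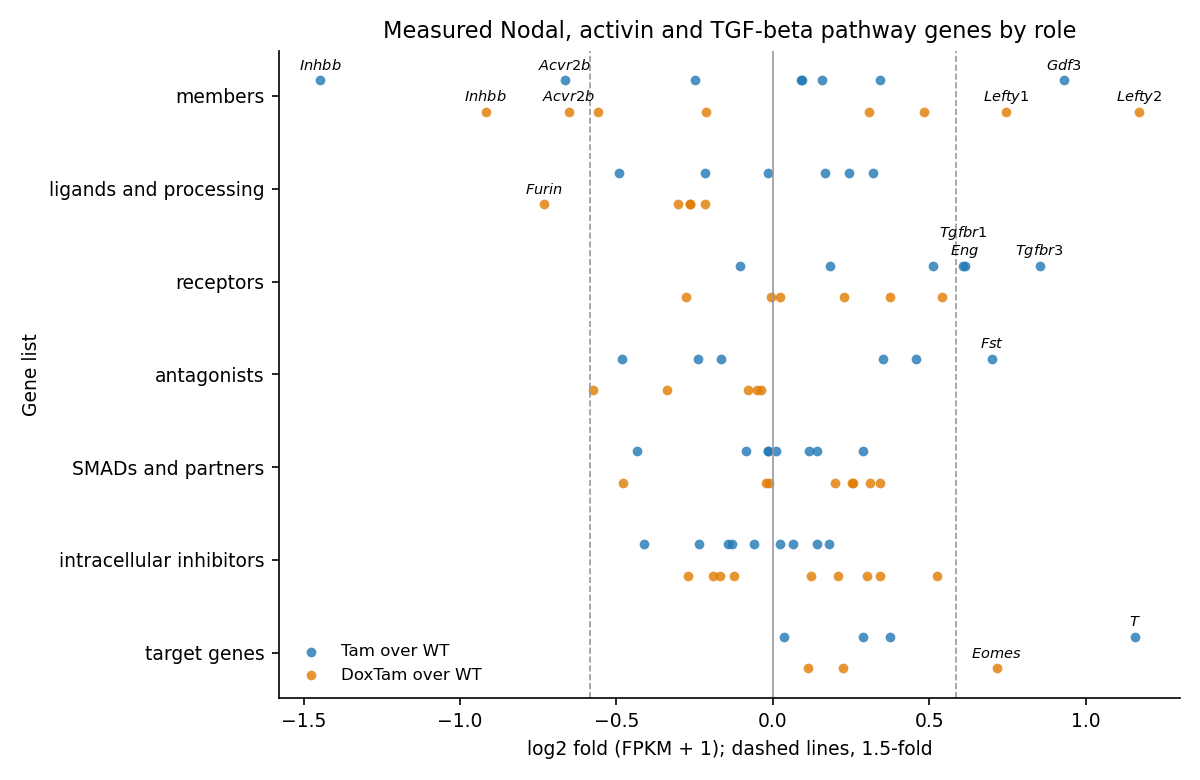
Log2 fold of every measured pathway gene by role, for Tam over WT (blue) and DoxTam over WT (orange), with genes past 1.5-fold (dashed lines) named. The SMADs and intracellular inhibitors lie between the lines in both. Of the 8 measured members, 5 lie between the lines in Tam and 4 in DoxTam, and the others lie outside them on both sides.

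The genes whose pair of folds (Tam and DoxTam against WT) was closest to that of a member were found by Euclidean distance among 7679 genes with at least 5 FPKM in all 3 libraries. Both folds share WT, so likeness over 2 folds describes 3 libraries only. *Inhbb* and *Lefty2* had no gene within 0.1. The closest to *Inhbb* was *Egr1*, an immediate early transcription factor, at 20.9, 8.37 and 9.82 FPKM (distance 0.244), and the closest to *Lefty2* was *Snhg3*, a small nucleolar RNA host gene, at 28.3, 38.8 and 60.6 FPKM (distance 0.141). *Gdf3* had 3 genes within 0.1, the first of which was *Ildr1* (distance 0.0688). *Acvr2b* had 35, *Tdgf1* 112, *Smad7* 119 and *Nodal* 129.

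The member folds were recomputed under other scalings, pseudocounts and corrections. In Tam, *Gdf3* was higher and *Inhbb* lower at 1.5-fold under all 7 alternatives that give a fold, with ranges of 0.75 to 1.06 and -1.54 to -1.14. In DoxTam, *Lefty2* was higher under all 7 (0.83 to 1.49), and *Lefty1* under 6, with 0.47 at a pseudocount of 5 FPKM. When all libraries were scaled to the same total over all genes, a total dominated by small RNA genes, the median fold of all genes shifted by 0.13 in Tam against WT, 0.32 in DoxTam against WT and 0.19 in DoxTam against Tam. Under that scaling *Nodal* in DoxTam was at 0.14 rather than -0.21, *Inhbb* at -0.58 and *Acvr2b* at -0.31, both short of 1.5-fold, and *Tdgf1* (0.84) and *Gdf3* (0.64) passed it.

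**Figure D5:**
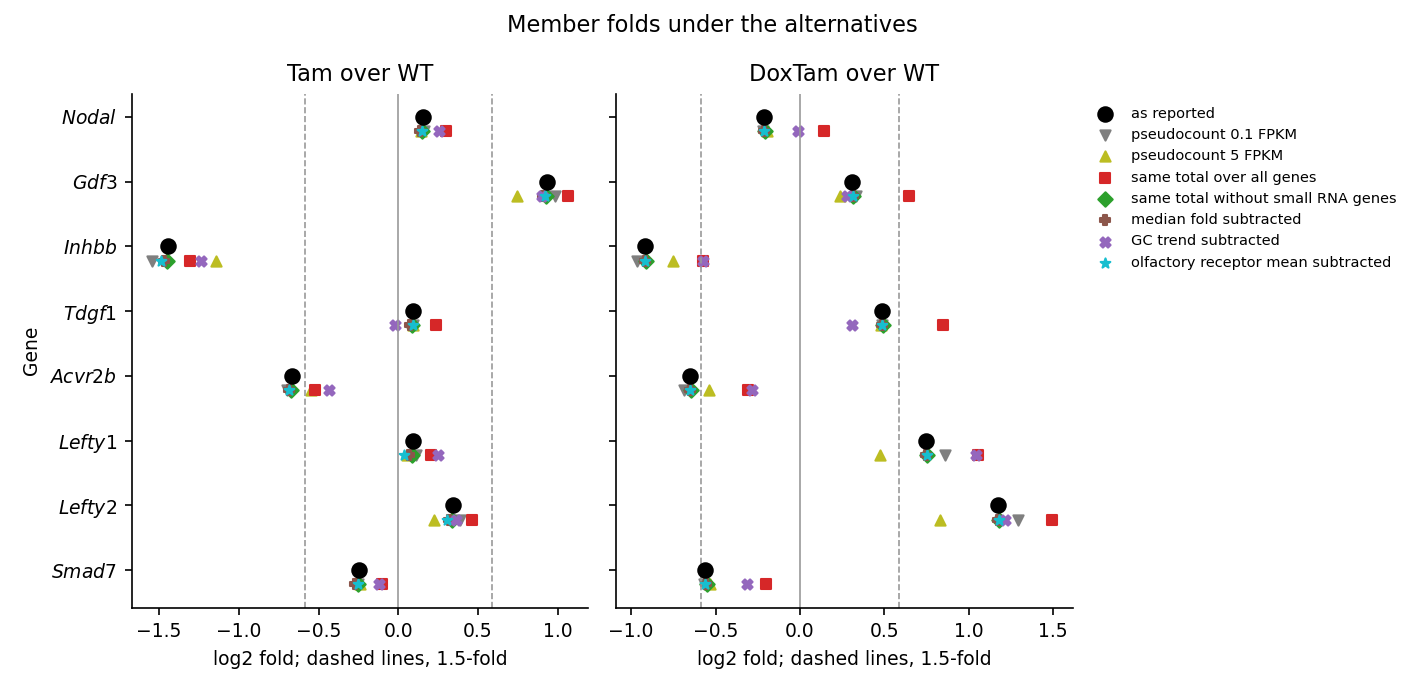
Log2 fold of each measured member as reported (black) and under 7 alternatives (colours), for Tam over WT and DoxTam over WT, with dashed lines at 1.5-fold. The points of *Inhbb* and *Gdf3* in Tam and of *Lefty2* in DoxTam stay outside the dashed lines, and those of *Acvr2b* fall on both sides of its line.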

How the data were processed

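Total RNA of E14 cells was extracted with Trizol and made into stranded libraries. Per the submitters' processing notes, reads were handled on mm9 with Cufflinks 2.0.0 and with TopHat and Bowtie (versions not given in the sources used here). The deposited values are FPKM per gene, in 2 tables of 23953 rows that each pair a treated library with WT. WT values differed by over 1% between the tables for 2 genes. The tables also hold the authors' fold changes, p-values, q-values and significance calls, none of which was used.

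Log2 folds were computed with a pseudocount of 1 FPKM, and a gene counted as measured where either library compared reached 1 FPKM. With 1 library per condition no test across samples was possible. The step of the low FPKM values, multiplied by transcript length, gave the approximate depth. Counting intervals (95%, exact binomial on the fragments so estimated) cover counting error only and are approximate. GC content and similarity came from the mm9 genome with its GENCODE annotation and BLAST 2.17.0. The GC trend was a lowess fit (span 0.2, statsmodels 0.14.6). Scripts ran in Python 3.11.15 and were tested on simulated data.

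The members, gene lists and rules were chosen with earlier results of these data known. Genes named were the 9 members, pathway genes past 1.5-fold, the defining genes of each role, *Pou5f1*, and for some members the nearest genes by fold. Neighbours, marker genes and other pathway genes named (*Nomo1*, *Bambi*, *Tgfbr2*, *Inhbc*, *Inhbe*) were chosen after their values were seen. The alternatives were other pseudocounts, filters, scalings, centring, GC correction and a 2-fold limit. A further alternative, subtraction of the mean level of olfactory receptor genes, was chosen after seeing the data.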

Additional observations from a re-analysis of the deposited data

How the results depend on the processing

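No paired analysis was possible because each condition has 1 library, and for the same reason no replicate could be left out. Of 120 counts recomputed under 10 alternatives, 85 stayed within 1.5 times of the value reported, 35 did not, and no called member reversed. The cause of the differences was not tested. Depth limits genes that rest on few fragments, such as *Inhba*, *Fst* and *T*.

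At a pseudocount of 5 FPKM, members lower in Tam numbered 1, members higher and lower in DoxTam 1 and 1, and members higher and lower in DoxTam against Tam 1 and 0. The pathway counts were then 0 higher in Tam, 0 higher and 0 lower in DoxTam, and 0 lower in DoxTam against Tam. A pseudocount of 0.1 FPKM gave 2 pathway genes higher and 2 lower in DoxTam. A filter at 5 FPKM left 2 pathway genes higher in Tam and 1 lower in DoxTam against Tam. With the GC trend subtracted, 1 member was lower in Tam (*Inhbb*), 0 in DoxTam, and 0 pathway genes were lower in DoxTam. At 2-fold, members higher and lower numbered 0 and 1 in Tam, 1 and 0 in DoxTam, and 0 and 0 in DoxTam against Tam. The 2-fold pathway counts were 1 higher in Tam, 0 and 0 in DoxTam, and 1 lower in DoxTam against Tam.

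With the same total over all genes, 1 member was lower in Tam, 4 were higher and 0 lower in DoxTam, and 4 were higher and 0 lower in DoxTam against Tam. The pathway counts were 9 higher and 0 lower in DoxTam, and 1 higher and 2 lower in DoxTam against Tam. That scaling took the share of all calls that were higher from 66.0% to 83.6% in Tam, from 41.6% to 93.0% in DoxTam, and from 26.7% to 60.5% in DoxTam against Tam. With small RNA genes left out of the total these shares were 65.0%, 43.6% and 28.8%.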
